A study of Mus musculus with 18 samples.

Results

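Slc3a2, Slc7a5, Slc7a6, Slc7a8, Slc7a11, Slc1a5, Slc38a1 and Slc38a2 encode plasma membrane carriers that move leucine, glutamine, cystine and related amino acids. These 8 genes, of the 22021 listed for the mouse dorsal root ganglion, were taken by symbol, and the choice rested on the values themselves: Slc3a2 was higher and Slc7a5 lower in ribosome pulldowns of paclitaxel-treated mice. For this reason the paclitaxel comparison in the pulldowns is described for these 8 genes without a test, and so is the comparison of pulldown with input for Slc3a2 and Slc7a5. All 8 genes passed the filter on low values.

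The dorsal root ganglia hold the cell bodies of the sensory neurons of trunk and limbs, together with satellite glia, Schwann cells, vessels and immune cells. All mice carried the same pair of alleles on a C57BL/6J background: Nav1.8cre, which drives Cre recombinase from the Scn10a promoter, and Rosa26fsTRAP, which after recombination expresses the ribosomal protein L10a fused to EGFP. Tagged ribosomes were therefore made in cells with a history of Nav1.8 expression, mostly nociceptors, and this includes neurons in which the promoter is no longer active. TRAP, translating ribosome affinity purification, pulled the tagged ribosomes out of the homogenate with antibodies to GFP, and the input is RNA of the same homogenate before the pulldown. Male and female littermates of 8 to 12 weeks formed 2 treatment groups. The paclitaxel group received the taxane at 4 mg/kg into the peritoneum in 4 injections over 8 days, a cumulative dose of 16 mg/kg, which models chemotherapy-induced neuropathy. The other group is labelled normal, and although the treatment protocol describes vehicle dosing, the labels do not say whether these animals received it. Each treatment had 4 biosamples, numbered 1 to 4 for normal and 5 to 8 for paclitaxel, each with an input and a TRAP library. Biosample 7 consisted of 2 subsamples, which were averaged here. The number of animals behind a biosample and its sex are not given in the sources used here, so the p-values measure the spread between these biosamples.

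Slc3a2 encodes 4F2hc (CD98), a single-pass glycoprotein that carries no amino acids by itself. It is the heavy chain to which the multi-pass light chains of the Slc7 family are joined by a disulfide bond, and most of these light chains need it to reach the cell surface. The light chain LAT1, encoded by Slc7a5, exchanges intracellular glutamine for leucine and other large neutral amino acids, and leucine is a signal for mTORC1, the kinase complex that links nutrient supply to translation. Slc1a5 and the Slc38 carriers bring in neutral amino acids such as glutamine along the sodium gradient and thereby supply the substrate that LAT1 exchanges. Slc3a2, Slc7a5, Slc7a11 and Slc38a2 are known targets of ATF4, a transcription factor induced when amino acids are scarce.

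**Figure D1:**
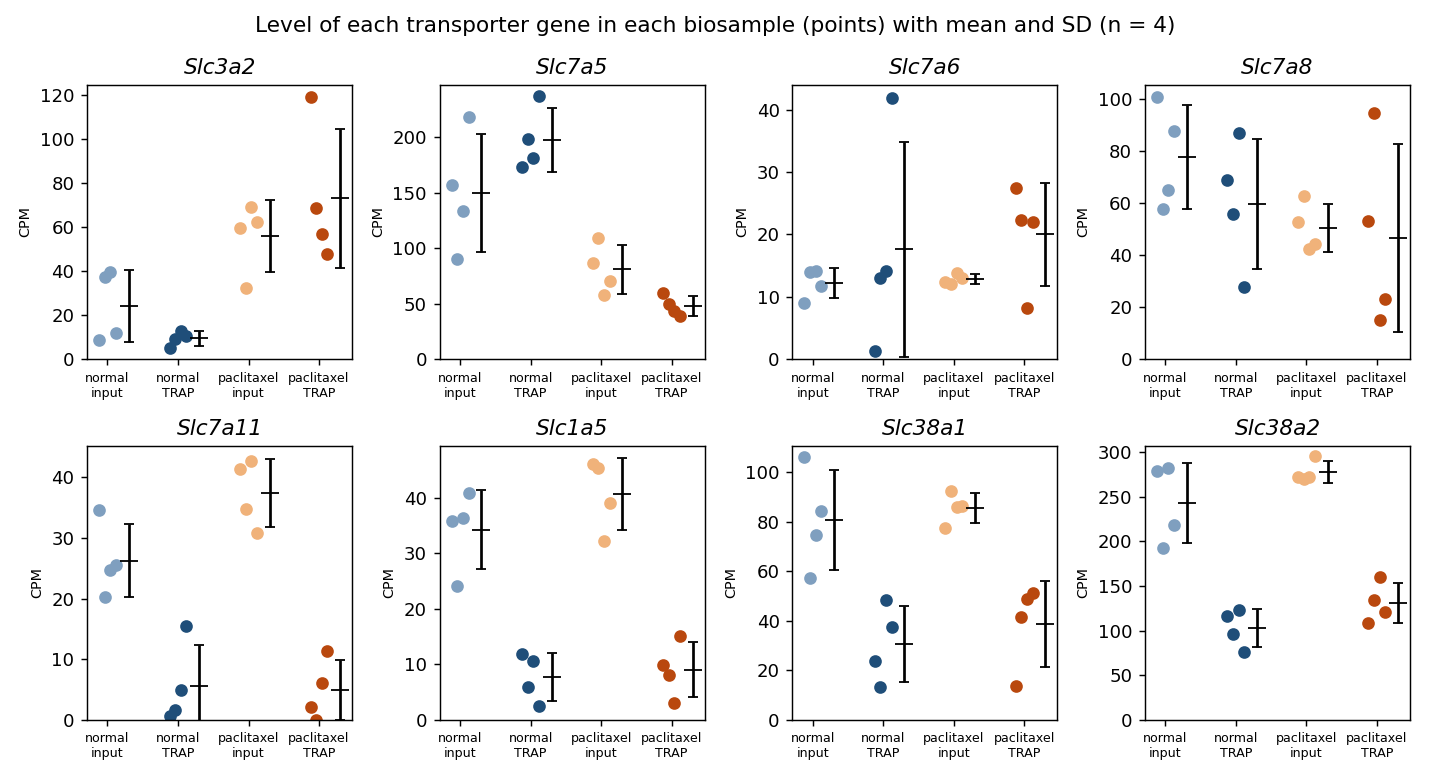
Level of each of the 8 genes in CPM (vertical axis from 0) in each biosample (points) of the 4 groups, with the mean and SD of 4 biosamples in black; SD bars that would run below 0 end at the axis. Slc3a2 is highest and Slc7a5 lowest in the paclitaxel TRAP libraries, while Slc7a11, Slc1a5, Slc38a1 and Slc38a2 are lower in TRAP than in input under both treatments.

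Promoter sequences are shown for 2 members, since ATF4 acts through a short DNA element. The members differ in whether the letters of that element stand near the start that was searched. RefSeq promoters (build GRCm38.p6, 300 bases each) were at hand for 5 members: Slc3a2, Slc7a6, Slc7a8, Slc7a11 and Slc38a2. Both strands were searched for TGATGNAA, the core of the amino acid response element, and for TGACNNNGC, the core of the antioxidant response element; the 2 patterns were searched separately and an overlap was allowed. The first stood in 3.97% of all 32851 promoters and the second in 12.4%. Slc7a11 held TGATGNAA on both strands, 66 and 47 bases before the start, marked by capitals in the first sequence. Slc3a2 held neither pattern in its window, and the same stretch relative to its RefSeq start is given for comparison. That start lies inside the gene as GENCODE places it (chr19:8706882-8723369, minus strand). The stretch before the outer start of Slc3a2 was therefore not searched. Both windows lie on the minus strand, 110 to 11 bases before the start, at chr3:50443624-50443723 for Slc7a11 and chr19:8713908-8714007 for Slc3a2.
Slc7a11: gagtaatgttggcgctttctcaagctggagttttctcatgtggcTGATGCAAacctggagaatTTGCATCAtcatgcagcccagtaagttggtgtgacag
Slc3a2: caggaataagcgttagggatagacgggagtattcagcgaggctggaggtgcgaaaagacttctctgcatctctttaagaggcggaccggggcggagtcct
Slc7a6 and Slc38a2 held TGACNNNGC and Slc7a8 neither pattern. These matches describe the letters only and no binding was measured.

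The values are CPM, that is reads at 3′ ends scaled so that each library sums to 1000000. QuantSeq, the method used, makes reads from the 3′ end of each transcript, and no division by transcript length was applied. The input libraries held 4266010 to 14478026 reads and the TRAP libraries 5972329 to 32713519, so that a count of 3 reads, the limit that a count of 0 allows, corresponded to between 0.0917 and 0.703 CPM (counting error only). At least 1 CPM was reached by 13152 to 14043 genes in the inputs but by 8081 to 13228 in the TRAP libraries. Scn10a, whose promoter drives Cre, was higher in TRAP than in input in normal mice (log2 change 0.59, limma adjusted p = 0.0267) and in paclitaxel-treated mice (1.30, adjusted p = 6.81e-05), with TRAP above input in all 8 biosamples. TRAP 7 subsample 1 stood apart: of 7616 genes at 10 CPM or more in every input, 663 (8.71%) had at most 1 read there, against 161 (2.11%) in TRAP 6, 58 (0.762%) in TRAP 5 and 0 to 32 in the remaining TRAP libraries.

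Slc3a2, the heavy chain, lies on chr19:8706882-8723369 (minus strand, GENCODE vM21 on GRCm38). The normal inputs held 8.49, 37.1, 39.6 and 11.7 CPM in biosamples 1 to 4, and the normal TRAP libraries 5.04, 9.24, 12.7 and 10.4 CPM. The paclitaxel inputs held 59.6, 32.2, 69.3 and 62.4 CPM in biosamples 5 to 8, and the paclitaxel TRAP libraries 119, 68.6, 56.9 and 47.8 CPM. Every paclitaxel TRAP library was above every normal TRAP library, while the inputs of the 2 treatments overlapped because paclitaxel biosample 6 was below normal biosamples 2 and 3. The means were 73.2 ± 32 CPM in paclitaxel TRAP, 55.9 ± 16.3 in paclitaxel input, 24.2 ± 16.4 in normal input and 9.34 ± 3.21 in normal TRAP (SD, n = 4 each). Ranges of neighbours in this order overlapped. In TRAP, Slc3a2 was 7.04-fold higher after paclitaxel on the scale of log2(CPM + 1), a log2 change of 2.82 ± 0.48 (SE); this is the difference that chose the gene and it was not tested.

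Slc7a5, the LAT1 light chain, lies on chr8:121881150-121907694 (minus strand). Its levels were 157, 90.5, 133 and 218 CPM in the normal inputs and 173, 198, 181 and 237 CPM in the matching TRAP libraries. After paclitaxel they were 86.5, 109, 57.7 and 69.9 CPM in input and 59.9, 49.4, 43.3 and 38.8 CPM in TRAP. The TRAP libraries of the 2 treatments lay far apart, and of the paclitaxel inputs only biosample 6 was above a normal input, that of biosample 2. The order of the means was the reverse of that of Slc3a2: 197 ± 28.7 CPM in normal TRAP, 149.7 ± 53.4 in normal input, 80.7 ± 22 in paclitaxel input and 47.8 ± 9.14 in paclitaxel TRAP (SD, n = 4 each), with overlapping ranges between neighbours. In TRAP the level after paclitaxel was 4.08-fold lower (log2 change -2.03 ± 0.27, SE), again a description of the choice. Of all 14214 genes tested, 1.82% passed an adjusted p of 0.05 in this comparison, and nothing is read from that share for the 8 genes.

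**Figure D2:**
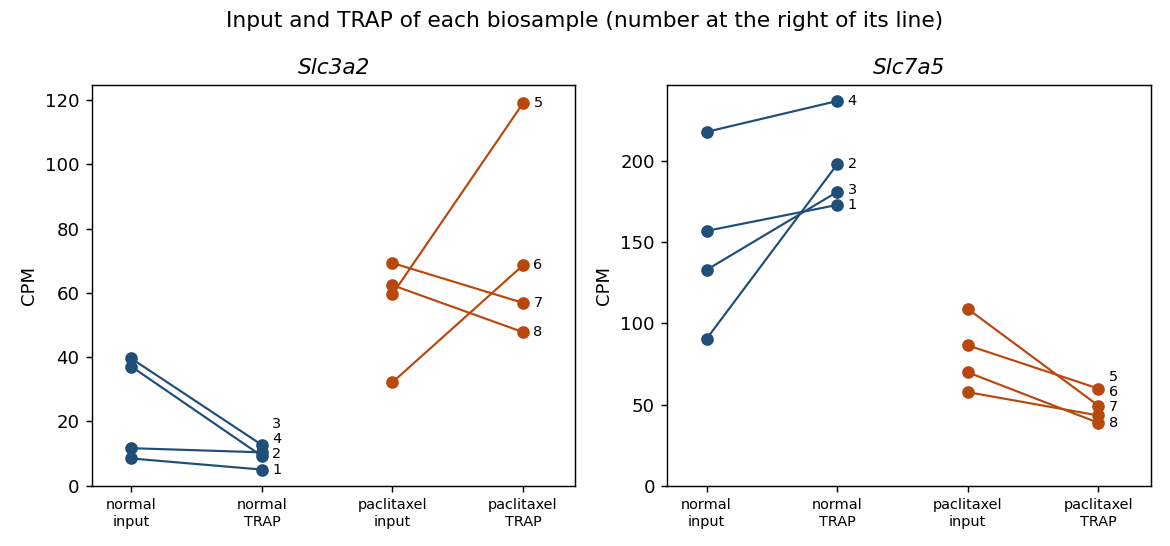
Slc3a2 (left) and Slc7a5 (right) in CPM, with a line from the input to the TRAP library of each biosample and the biosample number beside it. Slc7a5 rises along each line in normal mice and falls along each line after paclitaxel, whereas the Slc3a2 lines fall in normal mice and split after paclitaxel.

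Within biosamples, Slc7a5 was above input in TRAP in 4 of 4 normal biosamples (log2 differences 0.13, 1.12, 0.45 and 0.12) and below input in 4 of 4 paclitaxel samples (-0.52, -1.12, -0.41 and -0.83). Slc3a2 was below input in TRAP in 4 of 4 normal samples (-0.65, -1.90, -1.57 and -0.16) and split after paclitaxel, with biosamples 5 and 6 above input (0.99 and 1.07) and biosamples 7 and 8 below (-0.28 and -0.38). The difference between treatments in the TRAP-to-input change was 1.42 ± 0.57 for Slc3a2 and -1.18 ± 0.34 for Slc7a5 on the log2 scale (SE); both rest on the pulldown values that chose the genes and were not tested.

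The heavy chain and its best-known light chain were also set against each other as a ratio of 3′ end reads, which was compared between groups only. Slc3a2 per Slc7a5 was 0.0292 to 0.0701 in normal TRAP, 0.0537 to 0.41 in normal input, 0.296 to 1.2 in paclitaxel input and 1.23 to 1.99 in paclitaxel TRAP. The summed level of the 4 light chains Slc7a5, Slc7a6, Slc7a8 and Slc7a11 was 280.0 ± 33.3 CPM in normal TRAP, 266 ± 71 in normal input, 182 ± 29.5 in paclitaxel input and 119 ± 42.9 in paclitaxel TRAP (SD, n = 4). Slc7a5 made up 70.3% ± 4.99 of that sum in normal TRAP and 43% ± 12.4 in paclitaxel TRAP (SD, n = 4). These sums contain Slc7a5 and follow in part from the choice of the gene. They leave out Slc7a7, a light chain outside the 8 genes, whose mean in TRAP was higher after paclitaxel. It did not pass the test between treatments in TRAP with limma or edgeR. Slc7a7 was at 39.4 ± 13.5 CPM in normal TRAP and 94 ± 45.6 in paclitaxel TRAP (SD, n = 4). The ranges overlapped, at 21.6 to 54.2 and 39.2 to 142 CPM. Its inputs held 23.8 ± 7.92 CPM in normal and 33.7 ± 8.74 in paclitaxel biosamples (SD, n = 4).

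Slc7a6 encodes y+LAT2, which exchanges cationic for neutral amino acids, and lies on chr8:106168857-106198706 (plus strand). Its inputs were close to each other, at 8.97, 13.9, 14.2 and 11.7 CPM in normal and 12.3, 12, 13.8 and 13 CPM in paclitaxel biosamples. The TRAP libraries were scattered, at 1.3, 13, 14.2 and 41.9 CPM in normal and 27.5, 22.3, 8.22 and 22 CPM in paclitaxel biosamples, and all 4 groups overlapped. The group means ran from 12.2 ± 2.41 CPM in normal input and 12.7 ± 0.801 in paclitaxel input to 17.6 ± 17.2 in normal TRAP and 20 ± 8.26 in paclitaxel TRAP (SD, n = 4).

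Slc7a8 encodes LAT2, a second exchanger of neutral amino acids with a broader range than LAT1, and lies on chr14:54722209-54781946 (minus strand). It stood at 101, 57.9, 65 and 87.9 CPM in normal input, 68.8, 55.8, 87 and 27.6 in normal TRAP, 52.6, 62.6, 42.4 and 44.4 in paclitaxel input and 53.3, 94.7, 15 and 23.2 in paclitaxel TRAP. All groups overlapped, and the 2 lowest values belonged to TRAP 7 and 8. Among the normal inputs, biosamples 1 and 4 had the highest Slc7a5 and Slc7a8 and the lowest Slc3a2. The means ran in the order normal input (77.9 ± 19.9 CPM), normal TRAP (59.8 ± 25), paclitaxel input (50.5 ± 9.23) and paclitaxel TRAP (46.6 ± 36.1; SD, n = 4).

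Slc7a11 encodes xCT, which takes up cystine in exchange for glutamate and feeds glutathione synthesis, and lies on chr3:49892526-50443614 (minus strand). The normal inputs held 34.6, 20.2, 24.7 and 25.6 CPM and the paclitaxel inputs 41.4, 34.8, 42.7 and 30.8 CPM. The TRAP libraries held 0.65, 1.57, 4.86 and 15.4 CPM in normal and 2.16, 0.03, 6.02 and 11.3 CPM in paclitaxel biosamples. Every TRAP library was below every input, and the value of 0.03 CPM in TRAP 6 was a single read. The share of all genes separated in this way is not given here. Nothing is read from such a separation for this gene or for those below. The means were 37.4 ± 5.61 CPM in paclitaxel input, 26.3 ± 6.01 in normal input, 5.62 ± 6.77 in normal TRAP and 4.89 ± 4.97 in paclitaxel TRAP (SD, n = 4).

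Outside the heteromeric family, Slc1a5 encodes ASCT2, a sodium-dependent exchanger that takes up glutamine, on chr7:16781340-16798274 (plus strand). Its inputs were 35.8, 24.1, 36.3 and 40.8 CPM in normal and 46, 45.4, 32.2 and 39 CPM in paclitaxel biosamples. In TRAP it was at 11.9, 5.82, 10.5 and 2.51 CPM in normal and 9.89, 8.13, 2.99 and 15 CPM in paclitaxel biosamples, again with every TRAP library below every input. The means were 40.6 ± 6.45 and 34.2 ± 7.13 CPM in paclitaxel and normal input and 9.01 ± 4.97 and 7.67 ± 4.31 in paclitaxel and normal TRAP (SD, n = 4).

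Slc38a1 and Slc38a2 encode SNAT1 and SNAT2, sodium-coupled carriers of small neutral amino acids, and neighbour each other on chromosome 15, at chr15:96571418-96642913 and chr15:96687392-96699730 (both minus strand). Slc38a1 was at 106, 57.3, 74.7 and 84.4 CPM in normal input and 23.6, 13.2, 48.2 and 37.5 in normal TRAP. After paclitaxel it was at 77.6, 92.3, 85.7 and 86.1 CPM in input and 13.6, 41.4, 48.7 and 51.1 in TRAP. Slc38a2 was at 279, 192, 282 and 218 CPM in the normal and at 272, 270.2, 272 and 296 CPM in the paclitaxel inputs. Its TRAP libraries held 116, 96.6, 123 and 75.7 CPM in normal and 108, 134, 160.4 and 120.3 CPM in paclitaxel biosamples. For both genes all inputs were above all TRAP libraries, again with no share of all genes to compare, and within a fraction the treatments overlapped. The means of Slc38a1 were 85.4 ± 6.02, 80.7 ± 20.5, 38.7 ± 17.2 and 30.6 ± 15.4 CPM in paclitaxel input, normal input, paclitaxel TRAP and normal TRAP, and those of Slc38a2 in the same order 278 ± 12.6, 243 ± 44.9, 131 ± 22.5 and 103 ± 21.2 CPM (SD, n = 4).

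The comparison of TRAP with input asks which of these transcripts were enriched on ribosomes of the Nav1.8 lineage. Slc7a11, Slc1a5, Slc38a1 and Slc38a2 were lower in TRAP under both treatments, and no tested member was higher. In normal mice the log2 changes were -2.58 ± 0.68 for Slc7a11 (5.97-fold lower, adjusted p = 0.00717), -2.17 ± 0.51 for Slc1a5 (adjusted p = 0.00314), -1.48 ± 0.33 for Slc38a1 (adjusted p = 0.00229) and -1.24 ± 0.20 for Slc38a2 (2.36-fold lower, adjusted p = 9.79e-05; SE, limma, 4 pairs each). In paclitaxel-treated mice they were -3.22 ± 0.68 (adjusted p = 0.00177), -2.21 ± 0.51 (0.00327), -1.28 ± 0.33 (0.00731) and -1.10 ± 0.20 (0.000509) in the same order (SE, limma adjusted p). All 4 genes were lower in TRAP in 4 of 4 biosamples of each treatment, and the share of all genes that did so is not given here.

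These 4 calls among 6 tested members stand against a background in which 24.7% of the 14214 genes were lower and 5.09% higher in TRAP in normal mice (29.8% called in all), and 23% lower and 4.92% higher in paclitaxel-treated mice (27.9% in all). Over all genes tested the median change was -0.66 in normal and -0.56 in paclitaxel-treated mice on the log2 scale. Over the 8 members it was -1.15 and -0.91. The member medians include Slc3a2 and Slc7a5, whose pulldown values chose the genes, so nothing is read from the comparison. The scale is set by the total of each library: median-ratio scaling and quantile normalization shifted the median of all genes upward by 0.34 and 0.66 in normal and by 0.28 and 0.60 in paclitaxel-treated mice. The share of calls that were higher in TRAP moved from 17.1% to 45.2% and 48.5% in normal mice and from 17.6% to 39.4% and 47.6% in paclitaxel-treated mice. Under both scalings the 4 genes stayed lower in TRAP with an adjusted p under 0.05. With edgeR on the recovered reads, Slc38a2 was the only 1 of the 4 to pass in normal mice; the adjusted p was 0.11 for Slc7a11, 0.0671 for Slc1a5 and 0.0552 for Slc38a1. Without biosample 1 the change of Slc7a11 in normal mice was -1.96 (adjusted p = 0.0651), and without biosample 5 that of Slc38a1 after paclitaxel was -0.89 (adjusted p = 0.0878).

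The other 2 tested members, the light chains Slc7a6 and Slc7a8, did not pass. Slc7a6 changed by -0.11 (95% interval -1.35 to 1.12, adjusted p = 0.898) in normal and by 0.50 (-0.74 to 1.73, adjusted p = 0.553) in paclitaxel-treated mice. Slc7a8 changed by -0.45 (-1.18 to 0.27, adjusted p = 0.323) and -0.43 (-1.16 to 0.29, adjusted p = 0.361). The sign for Slc7a6 in normal mice was the opposite under both other scalings. For the members chosen on the pulldown, described without a test, the TRAP-to-input change was -1.07 ± 0.40 in normal and 0.35 ± 0.40 in paclitaxel-treated mice for Slc3a2, and 0.45 ± 0.24 and -0.72 ± 0.24 for Slc7a5 (SE).

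**Figure D3:**
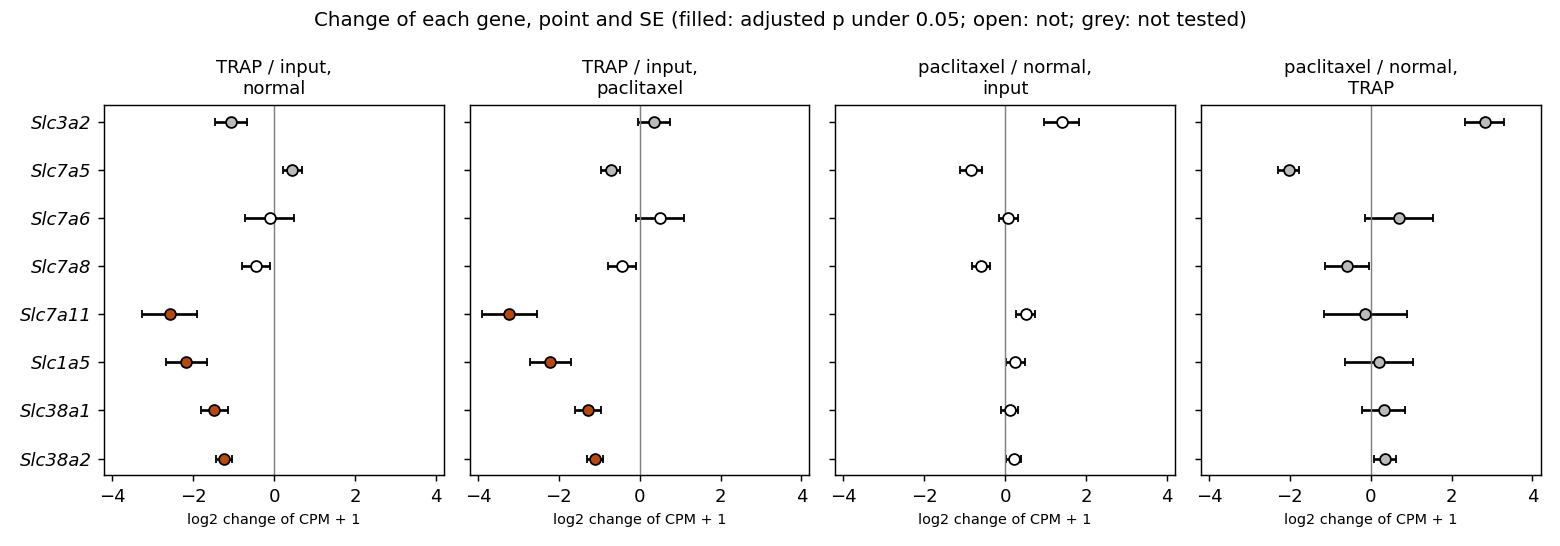
Log2 change of CPM + 1 (horizontal axis, point and SE) of the 8 genes in 4 comparisons; filled points passed an adjusted p of 0.05, open points did not, and grey points were not tested. The 4 filled points lie below 0 in both panels that compare TRAP with input, and none is filled in the panel for input of paclitaxel against normal mice.

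Markers of the non-neuronal cells of the ganglion moved the same way as the 4 lower genes. In normal mice 7 of 8 satellite glia, 8 of 8 myelinating Schwann cell, 6 of 8 endothelial, 5 of 6 fibroblast and 3 of 9 macrophage markers were lower in TRAP, and none of them higher. After paclitaxel these counts were 6, 7, 6, 5 and 6. The summed level of the satellite glia list was 771 to 1804 CPM in normal inputs against 282 to 489.8 in normal TRAP, and 1177 to 1483 against 443 to 513 after paclitaxel. That of the Schwann cell list was 5903 to 10522 against 1989 to 3159.8, and 6791 to 8834 against 2119 to 2850.0. Markers of large-fibre neurons, a class mostly outside the Nav1.8 lineage, were also lower (5 of 7 in normal, 7 of 7 after paclitaxel). Of the remaining lists, pericyte and smooth muscle markers were lower in 2 of 5 and 3 of 5, erythroid in 2 of 5 and 5 of 5, skeletal muscle in 4 of 5 and 4 of 5, and other leukocyte markers in 2 of 3 and 3 of 3 tested. Nociceptor markers were higher in 2 of 9 and lower in 2 of 9 in normal mice, and higher in 6 of 9 after paclitaxel, and pan-neuronal markers were higher in 3 of 7 and 4 of 7 and lower in 1 of 7 and 2 of 7. Every marker of the satellite glia, Schwann cell, endothelial, fibroblast and macrophage lists was above 0 in at least 1 library of each group. The part of these cells in the values of the 4 genes was not tested.

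Paclitaxel against normal mice in the inputs is the comparison that the choice of members did not use, and all 8 genes were tested. None passed an adjusted p of 0.05 with limma or with edgeR. Over all genes tested, 1.64% passed the adjusted threshold with limma (1.46% higher and 0.183% lower). At an unadjusted p of 0.05 there were 4 members with limma, Slc3a2, Slc7a5, Slc7a8 and Slc7a11, and 3 with edgeR. The share of all genes at that unadjusted threshold is not given here, and nothing is read from these counts. Slc3a2 changed by 1.40 ± 0.43 on the log2 scale (SE; 95% interval 0.49 to 2.31, limma adjusted p = 0.107) and Slc7a5 by -0.85 ± 0.27 (-1.43 to -0.28, adjusted p = 0.115). Both changes had the sign seen in the pulldown of the same animals, and the TRAP and input libraries of a biosample share the homogenate. Slc7a8 changed by -0.60 ± 0.23 (-1.08 to -0.11, adjusted p = 0.177) and Slc7a11 by 0.51 ± 0.23 (0.02 to 0.99, adjusted p = 0.238).

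The remaining 4 members had smaller input values of change, at 0.25 (95% interval -0.23 to 0.73) for Slc1a5, 0.21 (-0.20 to 0.62) for Slc38a2, 0.11 (-0.34 to 0.56) for Slc38a1 and 0.08 (-0.44 to 0.59) for Slc7a6, with adjusted p-values of 0.573 to 0.895 (limma). The calls depended on single biosamples of both treatments. Without biosample 2, Slc3a2 (1.69, limma adjusted p = 0.0347) and Slc7a5 (-1.07, adjusted p = 0.0266) passed, and the number of genes called rose from 233 to 831. That number was 0, 393 and 129 without normal biosamples 1, 3 and 4. It was 21, 218, 7 and 18 without paclitaxel biosamples 5, 6, 7 and 8. The median change of the 8 members was 0.16 and that of all genes 0.14.

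Sums of some cell type markers in the inputs differed between treatments as well. Over all genes tested, 1.64% were called between treatments in input and 1.82% in TRAP. The summed erythroid markers were 847 to 1189 CPM in normal and 1599.5 to 3726 in paclitaxel inputs (2 of 5 higher by the test), other leukocyte markers 247 to 453 and 531 to 1380.4 (2 of 3 higher), and pan-neuronal markers 14675 to 17699 and 10737 to 13007 (1 of 7 lower). Satellite glia, endothelial and macrophage lists each had 1 marker higher, of 8, 8 and 9, and the other 6 lists none. In the TRAP libraries the pan-neuronal sum was 23157 to 44047 CPM in normal and 13946 to 21038 in paclitaxel biosamples, with none of the 7 markers called, 2 of 9 nociceptor markers were higher after paclitaxel, and no marker of the other 10 lists was called. The leukocyte sum overlapped there, at 88.1 to 198 and 98.9 to 359.7 CPM, as did the erythroid sum, at 204 to 655 and 323 to 971 CPM. Slc3a2 and Slc7a5 thus moved beside these sums, and the part of cell makeup in their values was not tested. In tissue of this kind fewer cells of a type and less RNA per cell cannot be told apart.

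In the TRAP libraries the other 6 members did not separate the treatments. The log2 changes after paclitaxel were 0.69 ± 0.84 for Slc7a6, -0.58 ± 0.54 for Slc7a8, -0.13 ± 1.02 for Slc7a11, 0.21 ± 0.84 for Slc1a5, 0.32 ± 0.54 for Slc38a1 and 0.35 ± 0.27 for Slc38a2 (SE, n = 4 against 4, not tested), and all 6 pairs of ranges overlapped. The normal and paclitaxel libraries are the same ones that enter the TRAP-to-input changes above, so these values are not independent of them.

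The 2 subsamples of biosample 7 show how far single libraries scatter. In TRAP, Slc7a6, Slc7a11 and Slc1a5 had 1 read each in subsample 1 (0.09 CPM) and 197, 144 and 71 reads in subsample 2 (16.4, 11.9 and 5.89 CPM), although the inputs of the same subsamples differed little. The other 5 members were closer, with Slc3a2 at 63.7 and 50.2 CPM, Slc7a5 at 52.4 and 34.1, Slc7a8 at 16.4 and 13.6, Slc38a1 at 38.1 and 59.4 and Slc38a2 at 138 and 183 CPM. With subsample 2 alone, the paclitaxel TRAP-to-input changes were -2.94 for Slc7a11 (adjusted p = 0.00475), -1.96 for Slc1a5 (0.00614) and 0.66 for Slc7a6 (0.403), and with subsample 1 alone -3.94 (0.00276), -2.72 (0.00686) and -0.20 (0.867; limma).

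The 8 genes were placed beside 49 further amino acid transporters, of which 38 passed the filter. In normal mice 11 of the 38 were lower and 1 higher in TRAP (median change -0.94), and after paclitaxel 16 were lower and 3 higher (median -0.86). Over all genes 24.7% were lower and 5.09% higher in normal mice (median -0.66), and 23% and 4.92% after paclitaxel (median -0.56). The arginine and lysine carrier Slc7a2 was lower in both, by -2.02 ± 0.33 (adjusted p = 0.000116) and -2.31 ± 0.33 (3.98e-05), from 185 to 44.7 CPM and from 184 to 40.7 CPM. The proton-coupled carrier Slc36a2 was lower by -2.91 ± 0.61 (0.00136) and -2.84 ± 0.61 (0.00209), and Slc43a3, which is known as a purine transporter, by -2.32 ± 0.69 (0.0156) and -2.98 ± 0.69 (0.0036). The neutral amino acid carrier Slc6a15 was lower in normal mice (-2.17 ± 0.39, adjusted p = 0.000291). After paclitaxel the proline carrier Slc6a20a (-3.01 ± 0.61, 0.00131) and the glial glutamate transporter Slc1a3 (-2.83 ± 0.61, 0.00199) were lower. Slc43a3 in normal mice lost the call without biosample 1 (-2.04, adjusted p = 0.0743) and without biosample 3 (-2.10, 0.0735). It also lost the call under quantile normalization (-1.35, 0.0843) and without biosamples 1, 2, 5 and 6 (-1.80, 0.0965). With edgeR, Slc43a3 passed neither in normal mice (-2.98, edgeR adjusted p = 0.123) nor after paclitaxel (-3.14, 0.102). Slc36a2 in normal mice (-2.72, 0.0546) and Slc1a3 after paclitaxel (-2.47, 0.0718) did not pass with edgeR either.

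The transporters higher in TRAP were the cationic amino acid carrier Slc7a3 in normal mice (1.18 ± 0.45, adjusted p = 0.0484) and, after paclitaxel, the glutamate transporter Slc1a6 (1.37 ± 0.47, 0.0313), the y+LAT1 light chain Slc7a7 (1.33 ± 0.35, 0.0071) and the lysosomal carrier Slc36a1 (0.70 ± 0.21, 0.0151). They are named to complete the counts, after their values were seen. Each lost its call without some biosample: Slc7a3 without 2, 3, 4, 5 or 8 (0.91 to 1.31, adjusted p 0.0503 to 0.211), Slc1a6 without 5, 6, 7 or 8 (1.32 to 1.42, 0.0638 to 0.108), Slc7a7 without 7 (1.16, 0.0545) and Slc36a1 without 5 (0.65, 0.0769) or 6 (0.61, 0.0906). The adjusted p-values of these transporters are from limma and the errors are SE.

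The direction of the calls depended on the scaling, in this list as over all genes. Median-ratio scaling gave 7 higher and 4 lower in normal mice and 5 higher and 13 lower after paclitaxel, quantile normalization 6 and 4, and 4 and 8, and edgeR 6 and 2, and 4 and 4. Over all genes the share of calls higher in TRAP was 17.1% in normal mice in the main fit. In the same order it became 45.2%, 48.5% and 67.2%. After paclitaxel it moved from 17.6% to 39.4%, 47.6% and 59.9%. Nothing is read from these shifts for the list.

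**Figure D4:**
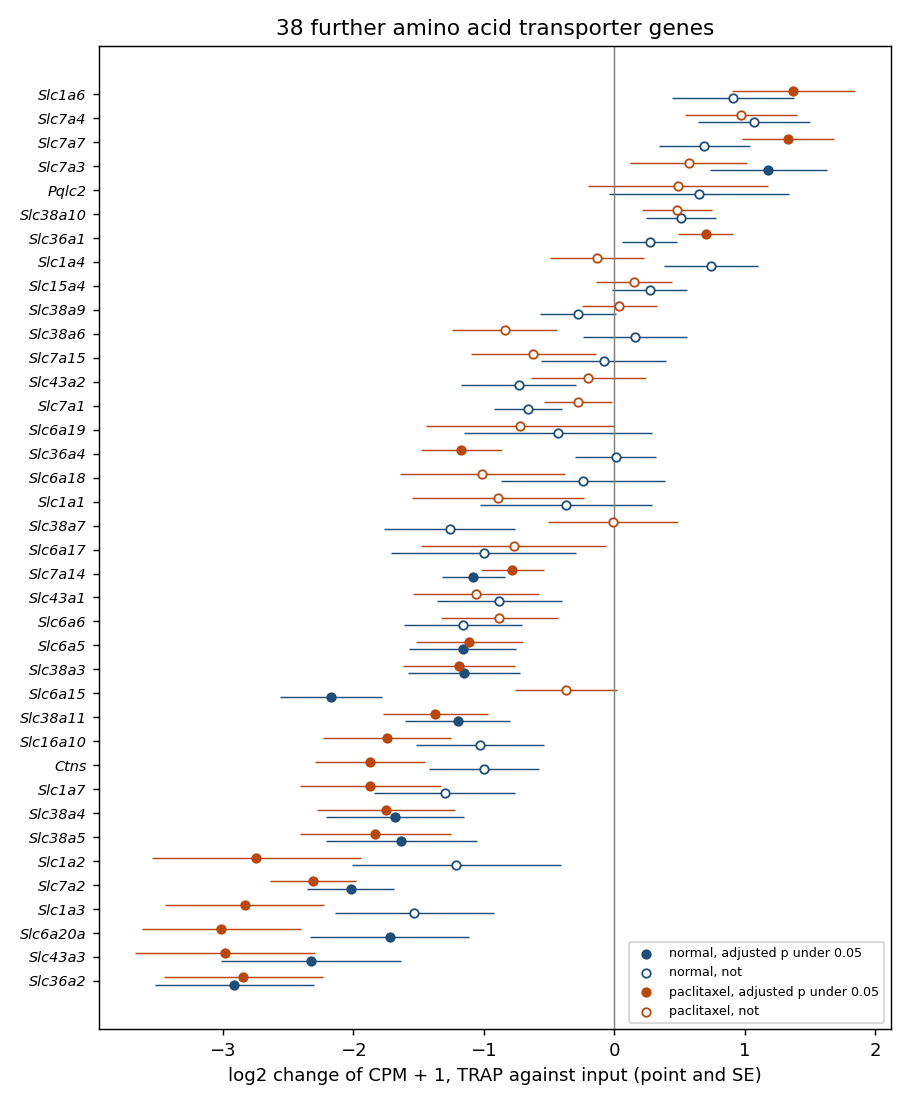
Log2 change of CPM + 1 between TRAP and input (horizontal axis, point and SE) of the 38 further amino acid transporter genes in normal and paclitaxel-treated mice; filled points passed an adjusted p of 0.05. Most filled points lie below 0, with Slc36a2, Slc43a3, Slc6a20a and Slc7a2 among the lowest.

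Between treatments, 1 of the 38 transporters passed in each fraction, against 1.82% of all genes in TRAP and 1.64% in input. Slc36a4, of the proton-assisted amino acid transporter family, was lower after paclitaxel in TRAP, at 36.1 ± 16.5 against 117 ± 21.5 CPM (SD, n = 4; log2 change -1.81 ± 0.41, limma adjusted p = 0.0417). The call was lost when any biosample but 6 was left out, with changes of -2.01 to -1.72 and adjusted p from 0.0574 to 0.148. Slc1a3 was higher after paclitaxel in input, at 66.8 ± 9.03 against 22.1 ± 11 CPM (SD, n = 4; log2 change 1.69 ± 0.32, limma adjusted p = 0.0237). It lost the call without biosample 1, 5, 7 or 8, with changes of 1.63 to 1.77 and adjusted p from 0.0688 to 0.118. Satellite glia of the ganglion express Slc1a3, and 1 of 8 satellite glia markers was higher in the same comparison. The summed satellite glia list had a median of 1264 CPM (771 to 1804) in normal and 1275 CPM (1177 to 1483) in paclitaxel inputs. The part of these cells in the value of Slc1a3 was not tested.

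Of 22 genes of the amino acid response downstream of ATF4, 21 passed the filter. None passed the test between treatments in TRAP or input with limma, and edgeR called 1 in TRAP and 0 in input. At an unadjusted p of 0.05 there were 3 and 5 with limma, with no share of all genes to compare. The 1 called by edgeR stood in TRAP. That 1 gene was Atf4 itself, at 269 ± 53.8 CPM in paclitaxel and 558 ± 176 CPM in normal TRAP (SD, n = 4), with a log2 change of -1.02 ± 0.28 by limma (adjusted p = 0.0772) and -1.31 by edgeR (adjusted p = 0.0181); it is named after its values were seen. Asns, the asparagine synthetase gene and a textbook target of ATF4, was at 16.7 ± 3.72 and 6.84 ± 6.33 CPM in the same libraries (SD, n = 4; 1.73 ± 0.91, limma adjusted p = 0.362), and was also chosen after its values were seen. In TRAP against input, 5 of the 21 were lower and 1 higher in normal mice and 4 lower and 0 higher after paclitaxel, with medians of -0.57 and -0.46. These shares are close to those over all genes (24.7% lower and 5.09% higher in normal mice, 23% and 4.92% after paclitaxel, medians -0.66 and -0.56), and nothing is read from them for the list. In normal mice the lower genes were Nupr1, a stress response gene (-2.25 ± 0.68, adjusted p = 0.0169), Gpt2, a mitochondrial alanine transaminase gene (-1.69 ± 0.40, 0.00321), Ddit4, an inhibitor of mTORC1 signalling (-1.29 ± 0.29, 0.00218), Sesn2, a leucine sensor (-1.86 ± 0.67, 0.0394), and Cebpg (-0.91 ± 0.34, 0.0459). Atf5, an ATF4-related factor, was the higher one (0.62 ± 0.19, 0.0173; limma, SE). After paclitaxel the lower genes were Phgdh, the first enzyme of serine synthesis (-2.67 ± 0.66, 0.0052), Nupr1 (-2.41 ± 0.68, 0.012), Gpt2 (-1.20 ± 0.40, 0.027) and Ddit4 (-0.82 ± 0.29, 0.0354). Cebpg and Atf5 are named to complete the counts.

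Gpt2 and Ddit4 in normal mice and Phgdh after paclitaxel stayed past the threshold with any 1 biosample left out. The others did not: in normal mice Nupr1 lost the call without biosample 1 (-1.84, adjusted p = 0.0959) or 2 (-1.99, 0.0667), Atf5 without 1 (0.48, 0.103), Sesn2 without 1, 2, 3 or 4 (-2.13 to -1.47, 0.0604 to 0.187) and Cebpg without 1, 2, 3, 5 or 8 (-1.04 to -0.54, 0.0545 to 0.241). After paclitaxel Nupr1 lost it without 5 (-1.77, 0.111), Gpt2 without 5, 6 or 7 (-1.35 to -0.92, 0.0536 to 0.164) and Ddit4 without 5, 6, 7 or 8 (-0.88 to -0.79, 0.0716 to 0.111). Under edgeR, 2 of the 21 were called in normal mice, Atf5 (1.14, adjusted p = 0.00181) and Atf4 (0.97, 0.00563), and 1 after paclitaxel, Atf5 (0.70, 0.0442), all higher in TRAP.

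Of 20 tested enzymes that use the transported amino acids, 7 were lower in TRAP in normal mice and 5 after paclitaxel, with none higher and medians of -0.78 and -0.64, against 24.7% and 23% lower over all genes (medians -0.66 and -0.56). With edgeR 3 were lower and 1, Bckdha, higher in normal mice (0.94, adjusted p = 0.0132), and 0 were called after paclitaxel, where 4 passed at an unadjusted p of 0.05. Gclm, the modifier subunit of the enzyme that makes the glutathione precursor from cysteine and glutamate, was lower in normal mice (61 to 11.4 CPM, log2 change -2.76 ± 0.42, adjusted p = 6.08e-05). After paclitaxel it was at 90.3 CPM in input and 57.8 in TRAP (-0.82 ± 0.42, adjusted p = 0.147). The difference between these changes was 1.94 ± 0.60 (adjusted p = 0.173, limma), which did not pass. Glud1, the glutamate dehydrogenase gene, was also lower in normal mice (-1.43 ± 0.20, adjusted p = 1.89e-05), and both kept the call with any 1 biosample left out. The branched-chain keto acid dehydrogenase subunit genes Bckdhb (-2.14 ± 0.56, adjusted p = 0.00725) and Dbt (-2.06 ± 0.71, 0.0312; limma, SE) were lower as well, but the call of Bckdhb was lost without biosample 1 (-1.36, 0.074) and that of Dbt without biosample 1 (-1.43, 0.192), 2 (-1.66, 0.13) or 3 (-2.31, 0.0561) and under both other scalings. Among the 5 lower after paclitaxel were the transaminase gene Got1 (-1.17 ± 0.25, 0.00197), Gls2 (-2.29 ± 0.65, 0.0123), Gss, the glutathione synthetase gene (-1.92 ± 0.69, 0.0415), and Glud1 (-0.71 ± 0.20, 0.0111; limma, SE), and of these 4 only Got1 kept the call with any 1 biosample left out. Adjusted p without 5 and without 6 was 0.0899 and 0.0602 for Gls2 and 0.0667 and 0.0586 for Glud1, and for Gss without 3, 4, 6 or 7 it was 0.0515 to 0.23. None of the 20 passed between treatments with limma, and edgeR called 0. At an unadjusted p of 0.05 there were 6 in TRAP and 4 in input with limma, again with no share of all genes to compare.

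Of 10 names for amino acid sensors of mTORC1, 7 were in the table and tested, and 1 of 7 was lower in TRAP under each treatment and 0 higher: Sesn2 in normal mice, with the values above, and Gatsl3 after paclitaxel (-1.33 ± 0.42, limma adjusted p = 0.0209), which reached a mean of only 2.05 CPM in input, is named to complete the count and lost the call without biosample 5, 6 or 7 (-1.20 to -1.15, 0.0917 to 0.102). Slc38a9, the lysosomal arginine sensor of the SNAT family, was at 65.1 ± 7.54 CPM in normal input and 55 ± 17.1 in normal TRAP, and at 58.7 ± 3.78 and 61.9 ± 17 after paclitaxel (SD, n = 4). None of the 7 passed between treatments with limma or edgeR, and 0 with limma in either fraction at an unadjusted p of 0.05. In the test of whether the TRAP-to-input change differed between treatments, none of the genes of the 4 lists passed with limma or edgeR. Of all genes, 0.19% passed with limma (0.162% with a larger and 0.0281% with a smaller change after paclitaxel). At an unadjusted p of 0.05, with no share of all genes to compare, there were 2 transporters, 0 ATF4 response genes, 0 sensors and 4 enzymes with limma.

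The genes whose pattern over the 16 libraries was most like that of Slc3a2, by Pearson's r of log2(CPM + 1) among 10525 genes, were Atp5f1 (r = 0.931), a subunit gene of mitochondrial ATP synthase, Fopnl (0.93), Esyt1 (0.928), a tether between the endoplasmic reticulum and the plasma membrane, Fsd1 (0.921) and Coro1c (0.921), an actin-binding protein. Those most like Slc7a5 were Hoxb4 (0.931), a homeobox gene, Capn1 (0.924), a calcium-activated protease, H2afy2 (0.917), a histone variant gene, Ckb (0.917), the brain creatine kinase, and Gys1 (0.915), the muscle glycogen synthase. These are descriptions across libraries that share 2 fractions, 2 treatments and their homogenates, and they carry no p.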

How the data were processed

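RNA of dorsal root ganglia was sequenced as QuantSeq 3′ end libraries, per the labels' protocols. The submitters' processing notes name FastQC 0.11.5, TopHat2 2.1.1, Bowtie2 2.2.9, Cufflinks 2.2.1, GENCODE vM10 and GRCm38.p4. The deposited table is headed TPM, but the values sum to 1000000 per library and 98.0% to 98.7% of the non-zero ones are whole multiples of 1 step (tolerance 0.0051), so the authors' values are CPM and the reads could be recovered. The 2 merged columns of biosample 7 were not used; its subsamples were averaged.

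Genes at 1 CPM or more in at least 4 of 16 libraries were tested with limma 3.58.1 (R 4.3.3) on log2(CPM + 1), with intensity trend and Benjamini-Hochberg adjustment over all 14214. TRAP and input were compared in 1 fit with the biosample as block, since both came from 1 homogenate, per the labels' protocols and the series text; deviations of paired libraries correlated at 0.053 to 0.376. Treatments were compared within each fraction. edgeR 4.0.16 on the recovered reads was an alternative. No share of all genes is given at an unadjusted p of 0.05, and nothing is read from the counts at that threshold. The scripts were tested on simulated data.

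The members, 4 gene lists (transporters, ATF4 response, mTORC1 sensors, enzymes) and 12 marker lists were chosen with earlier results of these data known. Named from a list are up to 4 called genes per comparison with the largest change and at least 5 CPM in the higher group; exceptions are said, and some list genes are not reported here. Gene positions are from GENCODE vM21 and promoters from RefSeq; Slc7a5, Slc1a5 and Slc38a1 are named without a promoter.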

Additional observations from a re-analysis of the deposited data

Results flagged for a closer look

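In the paclitaxel inputs, Slc38a2 stood at 296 CPM in biosample 8 while the other 3 biosamples lay between 270.2 and 272 CPM, so 1 sample was far from a group that was otherwise tight. Chance flags about 1 in 20 groups, and 32 groups of 4 were checked.

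For Slc7a5 the TRAP-to-input change differed between treatments by -1.18 on the log2 scale, from 0.45 in normal to -0.72 in paclitaxel-treated mice, with every normal biosample higher and every paclitaxel biosample lower in TRAP. The difference was not tested, because the pulldown values had chosen the gene.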

How the results depend on the processing

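Of the values of single members under the alternatives, 716 were counted as unchanged. For tested values this means the same direction and side of the threshold. For values described without a test it means within 2 SE of the main value, whatever the sign. For TRAP against input in normal mice, 4 of 6 tested members passed, and edgeR called 1 and the fit without biosamples 1, 2, 5 and 6 (added after seeing the data, as these pulldowns reached 1 CPM in the fewest genes once the subsamples of biosample 7 were averaged) 2. List genes called there were 25, with 14 under edgeR, 13 without those 4 biosamples and 10 to 27 with 1 biosample left out. Of all 14214 genes, 4233, 1864, 2393 and 2327 to 4356 were called in the same order. After paclitaxel the list genes called were 29, with 9 under edgeR, 10 without the 4 and 12 to 29 with 1 left out. The calls over all genes were 3963, 1915, 1845 and 2049 to 4377. Between treatments in TRAP the 1 list gene called became 0 (pseudocount 5, no filter, subsample 1 alone, without the 4), 2 (quantile, edgeR) or 5 (filter of 5 CPM), and 0 to 3 with 1 left out. Over all genes the 259 calls became 203, 0, 125 and 0, then 523 and 478, then 729 of 11719, in the same order. With 1 left out they were 0 to 491. In input the 1 list gene called became 2 (pseudocount 5) or 0 (no filter, without the 4), and 0 to 4 with 1 left out, and the members called there were 0 to 2 with 1 left out. The 233 calls over all genes became 252, 0 and 126, and 0 to 831 with 1 left out.

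Without the 4 biosamples, Slc7a11 (-1.41, adjusted p = 0.0873) and Slc38a1 (-0.88, 0.0546) in normal and Slc38a1 (-0.77, 0.111) in paclitaxel-treated mice lost their call in TRAP against input, and Slc7a8 after paclitaxel (-1.17, 0.0354) gained one. With edgeR, Slc38a1 after paclitaxel (-0.91, 0.0832) lost it (limma or edgeR adjusted p). Among the tested values, signs turned only for members that did not pass. For Slc7a6 in TRAP against input of normal mice the values were 0.07 (pseudocount 5), 0.26 (median-ratio), 0.74 (quantile), 0.31 (edgeR), 0.88 (without the 4) and -0.73 to 0.55 with 1 biosample left out (0.55 without biosample 1), and after paclitaxel -0.20 (subsample 1 alone). For Slc7a8 in normal mice it was 0.09 (edgeR). Between treatments in input, Slc7a6 gave -0.02 (median-ratio), -0.17 (quantile), -0.08 (edgeR) and -0.05 to 0.15 with 1 left out (-0.05 without biosample 1), Slc1a5 -0.11 (without the 4) and Slc38a1 -0.05 (edgeR) and -0.04 (without biosample 2). The cause was not tested.

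Without the replicate block, the paired TRAP and input fit called 4 of 6 members in each treatment, as with it, and 22 and 21 list genes. Of all 14214 genes it called 3287 and 3119. The share of calls that were higher after paclitaxel moved with scaling. In TRAP it went from 73% to 46.2% (median-ratio), 58.7% (quantile) and 40.4% (edgeR), and in input from 88.8% to 76%, 80.4% and 68.1%. For TRAP against input under edgeR, the share of calls higher in TRAP was 67.2% in normal and 59.9% in paclitaxel-treated mice.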
